A study of Homo sapiens with 6 samples.

Results

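The genes described here are the replication-dependent histone genes, the clustered genes that supply the bulk of the histone protein made when a cell copies its DNA. They were taken by symbol: H1-1 to H1-6, and every H2AC, H2BC, H3C or H4C symbol that ends in a number, with pseudogenes left out. The rule found 69 of the 61498 genes in the tables, of which 6 code for the linker histone H1, 17 for H2A, 18 for H2B, 13 for H3 and 15 for H4. Reads were found for 61 of them. The other 8 (H1-1, H2BC3, H3C3, H3C6, H3C11, H4C6, H4C7 and H4C13) had no read in any library.

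Total RNA was sequenced from untreated human cell lines after removal of ribosomal RNA, with 2 libraries per line. RPMI-8226-R is a derivative of RPMI-8226 resistant to bortezomib, an inhibitor of the proteasome, and whether it is 1 clone is not said in the labels. RPMI-8226 is a line from multiple myeloma, a tumour of plasma cells. The cells of the remaining line, NCI-BL2171, are given as B-lymphocytes. No line was given a drug in this series. Nothing in the labels tells whether the pair of libraries from a line goes back to different cultures, and the spread behind each p-value may therefore be technical alone.

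Histones H2A, H2B, H3 and H4 form the core around which DNA is wrapped, and H1 binds the linker DNA between cores. In most cell types the RNAs of the clustered genes rise at the start of S phase and are broken down at its end. They are the class of animal messenger RNA that normally carries no poly(A) tail: the RNA instead ends just after a short stem-loop, which the stem-loop binding protein SLBP holds and which the U7 small nuclear ribonucleoprotein helps to cut. Because ribosomal RNA was removed and no poly(A) selection is named, such RNAs can enter these libraries.

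The stem-loop is shown first because it is the sequence that these genes share and that sets them apart from other messengers. A run of 16 bases that matches its known shape, with arms of 6 bases on each side of a loop of 4, was found in the GENCODE 29 transcripts of 29 of the 65 genes that this annotation holds. For many of the others the annotated transcript ends with the coding part, so no match says only that these letters are not in the annotated transcript. There were 6 different forms, of which 5 are shown, 5′ to 3′ as DNA, with the arms of the stem in capitals and the loop in lower case:

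H2BC21: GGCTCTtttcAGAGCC
H2BC5: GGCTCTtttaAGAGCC
H2AC11: GGCTCTtttcAGGGCC
H4C11: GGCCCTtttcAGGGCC
H4C14: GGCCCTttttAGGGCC

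The form in H2BC21 lies at chr1:149886188-149886203 on the minus strand (GENCODE 29, GRCh38) and is shared by 15 genes of the H2A, H2B and H3 types. That in H2BC5, at chr6:26158587-26158602 on the plus strand, is shared by 4 genes (H2BC4, H2BC5, H2BC7 and H3C8). H2AC11 alone had the form at chr6:27133515-27133530 on the plus strand. There 5 of the 6 bases of one arm are exact complements of the other, and a T opposite a G was not counted. The form in H4C11 (chr6:27824459-27824474, plus strand) was found in 5 H4 genes, and that in H4C14 (chr1:149833032-149833047, plus strand) in 3 H4 genes. In every form but that of H2AC11 all 6 bases of the arms are exact complements.

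The 6 libraries held between 23952370 and 29052199 estimated reads. The markers of the labelled cell types went against one label. The 10 erythroid markers summed to 159 and 175 TPM in RPMI-8226-R and to 53.7 and 54.3 TPM in RPMI-8226, with 2 of 10 at 1 TPM or more in each and GATA1, ALAS2 and HBZ at 0, against 64211 and 61420 TPM and 10 of 10 in the libraries labelled NCI-BL2171. Of the 8 B cell markers 1 reached 1 TPM in RPMI-8226-R, 2 in RPMI-8226 and 1 in the libraries labelled NCI-BL2171, where MS4A1 and PAX5 were at 0. They summed to 134 and 140 TPM in RPMI-8226-R and 5446 and 5606 TPM in RPMI-8226, nearly all of it CD74, and to 5.07 and 5.26 TPM in the libraries labelled NCI-BL2171. All 8 plasma cell markers reached 1 TPM in both myeloma lines (33540 and 34604 TPM in RPMI-8226-R, 55202 and 57819 TPM in RPMI-8226), against 2 of 8 and 47.9 and 50.7 TPM in the libraries labelled NCI-BL2171. The part of cell type in the differences between lines was not tested.

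Histone RNA was lowest in RPMI-8226-R and highest in the libraries labelled NCI-BL2171. TPM is a level scaled to the library and taken per length of transcript, so it can be compared between genes. Over all 69 genes it summed to 202.6 TPM in RPMI-8226-R, 864.8 TPM in RPMI-8226 and 6306 TPM in the libraries labelled NCI-BL2171 (means of 2 libraries). The sum in RPMI-8226-R was thus 4.27-fold lower than in RPMI-8226 and 31.1-fold lower than in the libraries labelled NCI-BL2171, and that in RPMI-8226 was 7.29-fold lower than in the libraries labelled NCI-BL2171. No test was made on sums, which are given as values. In bulk RNA, fewer cells in S phase and less histone RNA per cell cannot be told apart.

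The types differed in how far they were apart. H1 RNA summed to 34.2 and 30.6 TPM in RPMI-8226-R, 267 and 286 TPM in RPMI-8226 and 2315 and 2298 TPM in the libraries labelled NCI-BL2171. H2A RNA came to 48.5 and 40.2 TPM in RPMI-8226-R, 269 TPM in each library of RPMI-8226, and 1246 and 1255 TPM in the libraries labelled NCI-BL2171. H2B RNA came to 98.7 and 89.6 TPM in RPMI-8226-R, 234 and 235 TPM in RPMI-8226 and 2432 and 2464 TPM in the libraries labelled NCI-BL2171. No library of one line overlapped with another line in any of these 3 types.

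H3 and H4 RNA was less abundant. H3 summed to 9.76 and 6.40 TPM in RPMI-8226-R, 31.0 and 32.0 TPM in RPMI-8226 and 182 and 177 TPM in the libraries labelled NCI-BL2171. H4 summed to 29.2 and 17.9 TPM in RPMI-8226-R, 49.4 and 57.5 TPM in RPMI-8226, and 121 and 122 TPM in the libraries labelled NCI-BL2171. The lines kept the same order in both types, and the libraries of a line did not overlap with those of another. Relative to RPMI-8226, the sum in RPMI-8226-R was 8.52-fold lower for H1, 6.07-fold lower for H2A, 3.90-fold lower for H3, 2.49-fold lower for H2B and 2.27-fold lower for H4. A core particle holds the same number of each core histone, but sums of RNA for the 4 core types were not equal in any line. TPM and CPM (counts scaled to library size with TMM factors) place the lines differently: each gene tested has a log2 ratio of RPMI-8226-R over RPMI-8226 on either scale, and the difference between them, TPM minus CPM, had a median of 0.32 over genes. Where CPM was summed in place of TPM, the log2 ratio of RPMI-8226-R over RPMI-8226 was -2.01 for H2B and -2.80 for H3, against -1.32 and -1.96 in TPM; that of RPMI-8226-R over the libraries labelled NCI-BL2171 was -5.51 for H3, against -4.48 in TPM.

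**Figure D1:**
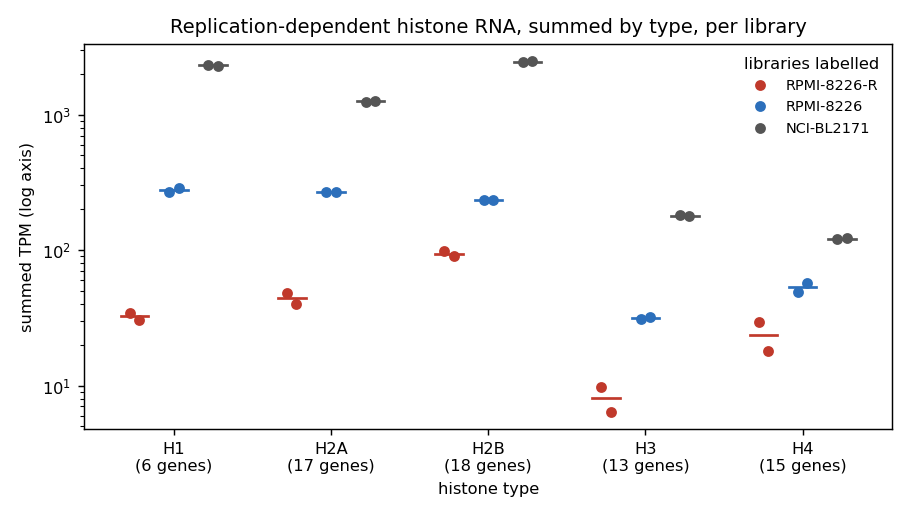
Summed TPM of the replication-dependent histone genes of each type (log axis) in each library, with points for libraries and bars for the mean of the 2 libraries of a line. In every type RPMI-8226-R is lowest and the libraries labelled NCI-BL2171 are highest; H1 averages 32.4 TPM in RPMI-8226-R and 2306 TPM in the libraries labelled NCI-BL2171, and H4 averages 23.6 TPM in RPMI-8226-R and 121.5 TPM in the libraries labelled NCI-BL2171.

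Single genes were tested with edgeR's quasi-likelihood F test on rounded counts over all 6 libraries, with Benjamini-Hochberg adjustment over 20081 genes at 0.05. Of the 69 genes 50 had enough reads to be tested and 19 did not, 11 of them with reads. A gene could enter through the line in which it is high, so the counts describe those tested genes and not the whole set. In RPMI-8226-R against RPMI-8226, 33 of 50 were lower, 1 was higher and 16 did not pass, where 37.2% of all genes tested were lower and 28.5% higher. Their median log2 fold change was -2.0, against -0.12 over all genes tested. H1-5 and H1-6, which had no read in either line, are among the 50 and the 16 and could not be called here. Over all genes 5716 were called higher and 7461 lower; with library totals in place of TMM the split was 7151 and 6082, and on log2(TPM + 1) with limma it was 6896 and 4288, while 32 and 31 histone genes were lower. Over all 69 genes, tested or not, 38 had both RPMI-8226-R libraries below both RPMI-8226 libraries in TPM, 3 had them above and 28 overlapped or were at 0. The share of all genes in the tables with such a separation was not counted, so these numbers describe the 69 genes only.

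In RPMI-8226 against the libraries labelled NCI-BL2171, 39 of the 50 were lower and 2 higher, where 35.6% and 41.1% of all genes tested were lower and higher. In RPMI-8226-R against the same libraries 45 were lower and 2 higher, with 38.2% of all genes lower and 39.2% higher. The median log2 fold changes of the 50 were -1.90 and -4.14. Both comparisons use the libraries labelled NCI-BL2171, and the first shares its RPMI-8226 libraries with the comparison to RPMI-8226-R, so these counts are not independent of each other.

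**Figure D2:**
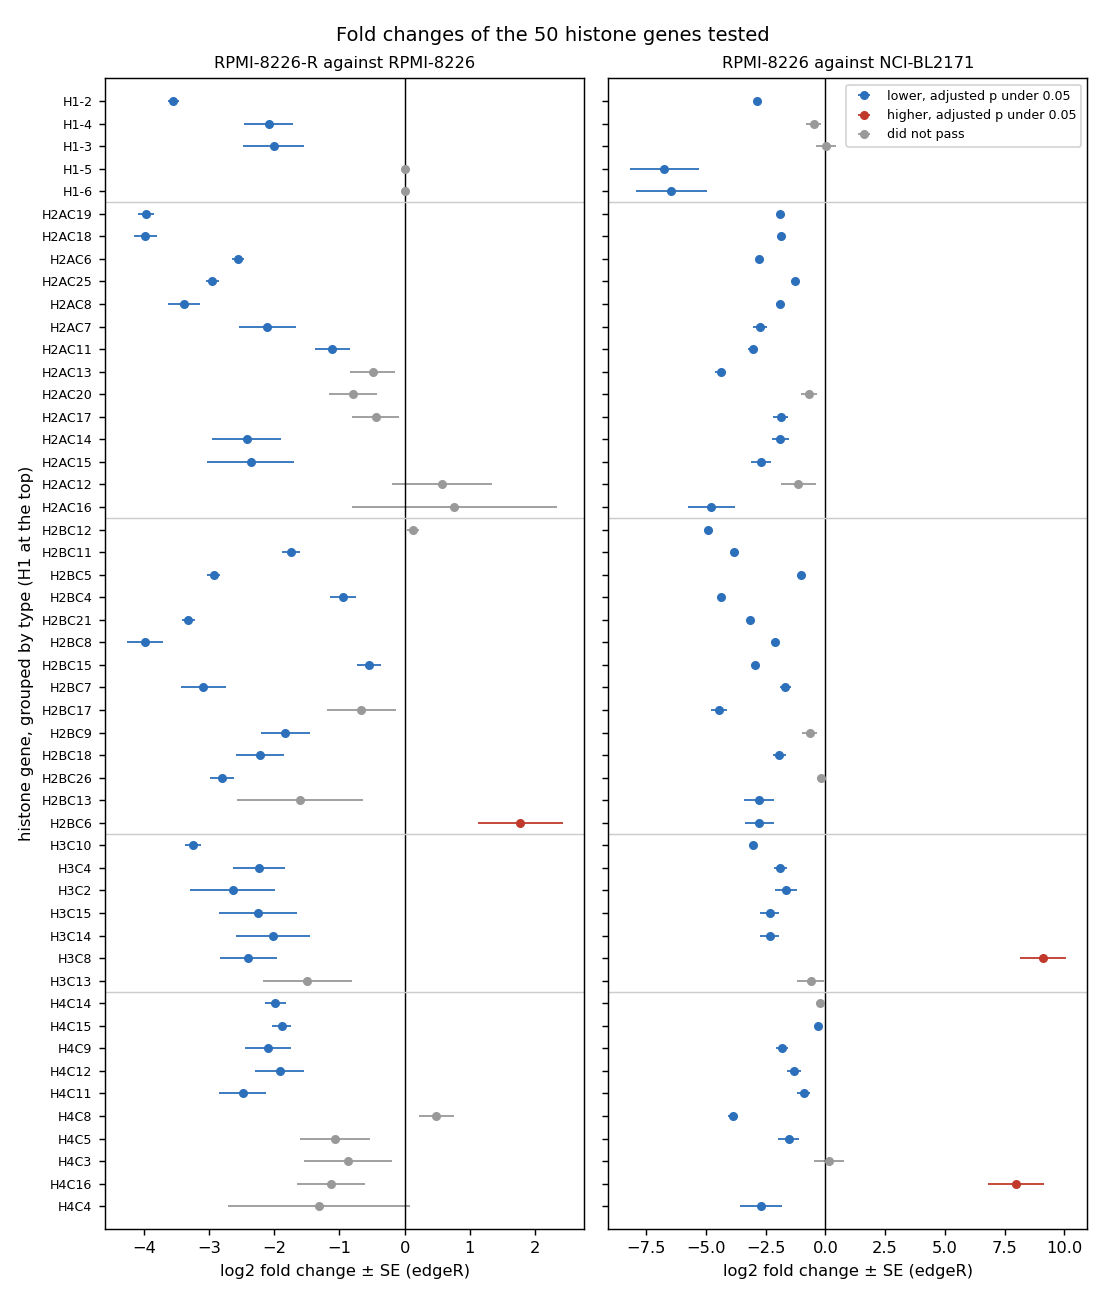
Log2 fold change ± SE (edgeR, horizontal axis) of each of the 50 tested histone genes, grouped by type with H1 at the top, for RPMI-8226-R against RPMI-8226 (left) and RPMI-8226 against NCI-BL2171 (right). Blue and red mark genes past the threshold. On the left 33 genes lie below 0 past the threshold, and the gene furthest to the right is H2BC6 at 1.77; values beyond 6 in size on the right belong to genes with no read in one line and depend on the prior count of the fit.

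Of the linker histones, H1-2 carried nearly all of the RNA. It had 476 and 452 reads (31.0 and 29.5 TPM) in RPMI-8226-R, 5019 and 5130 reads (260 and 278 TPM) in RPMI-8226, and 39879 and 34507 reads (2301 and 2288 TPM) in the libraries labelled NCI-BL2171. The lines did not overlap, and each step was many times the gap between libraries. H1-2 was 93.3% of H1 TPM in RPMI-8226-R, 97.5% in RPMI-8226 and 99.5% in the libraries labelled NCI-BL2171. It fell by 3.55 ± 0.08 on the log2 scale in RPMI-8226-R against RPMI-8226 (estimate ± SE, adjusted p = 6.34e-19), and was lower by 2.87 ± 0.07 in RPMI-8226 than in the libraries labelled NCI-BL2171 (log2 fold change -2.87, adjusted p = 3.70e-19).

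H1-4 and H1-3, which code for further replicating-cell linker variants, were far lower. H1-4 had 35 and 15 reads in RPMI-8226-R, 86 and 114 in RPMI-8226, and 183 and 101 in the libraries labelled NCI-BL2171. H1-3 had 19 and 5 reads in RPMI-8226-R, 50 and 42 in RPMI-8226, and 48 and 42 in the libraries labelled NCI-BL2171. Both fell in RPMI-8226-R against RPMI-8226 (log2 fold change -2.09 ± 0.38 for H1-4, adjusted p = 1.53e-04, and -2.01 ± 0.47 for H1-3, adjusted p = 8.58e-04), and neither passed between RPMI-8226 and the libraries labelled NCI-BL2171. H1-5 and H1-6 had reads in the libraries labelled NCI-BL2171 alone, 26 and 21 over both; H1-6 is known as a variant of the testis. Against a floor of 3 reads per library, H1-5 was at least 4.6-fold lower in RPMI-8226-R and at least 4.30-fold lower in RPMI-8226 than in the libraries labelled NCI-BL2171.

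Among the H2A genes 9 of the 14 tested fell in RPMI-8226-R against RPMI-8226, none rose and 5 did not pass. In that comparison 37.2% of all genes tested were lower. The 4 with the highest mean TPM, which all fell, were H2AC19, H2AC18, H2AC6 and H2AC25. H2AC18 and H2AC19 are near-identical copies next to each other on chromosome 1, so how reads were split between them is uncertain and their values are best read together. H2AC18 had 81 and 42 reads in RPMI-8226-R, 923 and 896 in RPMI-8226 and 3492 and 3055 in the libraries labelled NCI-BL2171. H2AC19 had 68 and 55 reads in RPMI-8226-R, 936 and 865 in RPMI-8226, and 3538 and 3099 in the libraries labelled NCI-BL2171. The lines did not overlap for either copy, and the log2 fold changes of RPMI-8226-R against RPMI-8226 were -3.98 ± 0.18 (adjusted p = 3.71e-10) and -3.96 ± 0.12 (adjusted p = 8.32e-17).

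H2AC6 had 5.48 and 7.63 TPM in RPMI-8226-R, 29.1 and 33.5 TPM in RPMI-8226 and 253 TPM in each of the libraries labelled NCI-BL2171. H2AC25, which lies apart from the main cluster on chromosome 1 beside H2BC26, had 8.18 and 10.6 TPM in RPMI-8226-R, 58.1 and 52.7 TPM in RPMI-8226, and 158 and 151 TPM in the libraries labelled NCI-BL2171. They fell by 2.55 ± 0.09 and 2.95 ± 0.10 on the log2 scale in RPMI-8226-R against RPMI-8226, with no overlap between lines. H2AC8 also fell (-3.39 ± 0.24, adjusted p = 2.83e-10), with 32 and 14 reads in RPMI-8226-R, 241 and 212 in RPMI-8226, and 959 and 747 in the libraries labelled NCI-BL2171.

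Other H2A genes had few reads in both myeloma lines. H2AC13 had 13 and 19 reads in RPMI-8226-R, 19 and 23 in RPMI-8226, and 461 and 420 in the libraries labelled NCI-BL2171; its log2 fold change was -0.49 ± 0.35 between the myeloma lines, which did not pass (adjusted p = 0.224), and -4.38 ± 0.23 in RPMI-8226 against the libraries labelled NCI-BL2171 (adjusted p = 1.51e-13). H2AC11 fell in RPMI-8226-R against RPMI-8226 by 1.11 ± 0.27 on the log2 scale, with 26 and 24 reads in RPMI-8226-R, 49 and 52 in RPMI-8226, and 454 and 371 in the libraries labelled NCI-BL2171. H2AC16 had 2 reads over both RPMI-8226-R libraries, 1 over both RPMI-8226 libraries and 34 over those labelled NCI-BL2171. By counts it was 18.2-fold lower in RPMI-8226-R (95% exact interval 4.67 to 157) and 34.1-fold lower in RPMI-8226 (95% exact interval 5.72 to 1385) than in the libraries labelled NCI-BL2171; intervals and floors cover counting error only.

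H2AC7, H2AC14 and H2AC15 fell between the myeloma lines as well (log2 fold changes -2.11, -2.42 and -2.36), on 2 to 27 reads per library in RPMI-8226-R, 9 to 67 in RPMI-8226 and 81 to 441 in the libraries labelled NCI-BL2171. H2AC17 (-0.44 ± 0.36), H2AC20 (-0.79 ± 0.37), H2AC12 and H2AC16 did not pass. H2AC17 was lower in RPMI-8226 than in the libraries labelled NCI-BL2171 (-1.88 ± 0.31), with 27 and 20 reads in RPMI-8226-R, 30 and 30 in RPMI-8226, and 102 and 118 in the libraries labelled NCI-BL2171.

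H2B held the one member that rose and the most abundant one that did not pass. Of its 14 tested genes 10 fell in RPMI-8226-R against RPMI-8226, where 37.2% of all genes tested were lower. H2BC12 had 476 and 448 reads (51.5 and 48.5 TPM) in RPMI-8226-R, 433 and 357 reads (37.1 and 32.2 TPM) in RPMI-8226, and 12717 and 11020 reads (1208 and 1217 TPM) in the libraries labelled NCI-BL2171. It was the most abundant histone gene in RPMI-8226-R, with 24.7% of the TPM of all 69, the sixth in RPMI-8226 with 4.01%, and the second, after H1-2, in the libraries labelled NCI-BL2171, with 19.2%. The log2 fold change in RPMI-8226-R against RPMI-8226 was 0.13 ± 0.09 (adjusted p = 0.220). It passed as higher with library totals in place of TMM (0.34), on log2(TPM + 1) with limma (0.52) and without the second RPMI-8226-R library (0.24). In RPMI-8226 it was lower than in the libraries labelled NCI-BL2171 (-4.91 ± 0.09, adjusted p = 1.37e-21).

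H2BC5 was the leading H2B gene of RPMI-8226 by TPM. It had 15.5 and 13.8 TPM in RPMI-8226-R, 102 and 101 TPM in RPMI-8226, and 232 and 233 TPM in the libraries labelled NCI-BL2171. It fell by 2.93 ± 0.10 on the log2 scale in RPMI-8226-R against RPMI-8226 (adjusted p = 2.75e-16). By TPM, the leading H2B messenger was thus H2BC12 in RPMI-8226-R and in the libraries labelled NCI-BL2171, and H2BC5 in RPMI-8226. By reads it was H2BC21 in RPMI-8226 (1491 and 1406, against 1265 and 1204 for H2BC5). In the libraries labelled NCI-BL2171 H2BC21 also had the most reads (13448 and 12249, against 12717 and 11020 for H2BC12). The length of H2BC21 was 2224 bases in every library, against 495 for H2BC12, and TPM is taken per length. Of H2B TPM, H2BC12 was 53.1% in RPMI-8226-R, 14.8% in RPMI-8226 and 49.5% in the libraries labelled NCI-BL2171. H2BC5 was 15.6% in RPMI-8226-R, 43.1% in RPMI-8226 and 9.50% in the libraries labelled NCI-BL2171.

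H2BC8 and H2BC21 were among the largest falls. H2BC8 had 14 and 7 reads in RPMI-8226-R, 145 and 169 in RPMI-8226, and 749 and 607 in the libraries labelled NCI-BL2171. H2BC21, a chromosome 1 gene known also to make polyadenylated RNA, had 128 and 182 reads in RPMI-8226-R, 1491 and 1406 in RPMI-8226, and 13448 and 12249 in the libraries labelled NCI-BL2171. The log2 fold changes of RPMI-8226-R against RPMI-8226 were -3.98 ± 0.28 (adjusted p = 5.84e-11) for H2BC8 and -3.32 ± 0.10 (adjusted p = 5.28e-17) for H2BC21. H2BC7 fell as well (-3.09 ± 0.35), with 16 and 5 reads in RPMI-8226-R, 79 and 90 in RPMI-8226, and 281 and 262 in the libraries labelled NCI-BL2171.

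H2BC11 and H2BC4 fell between the myeloma lines, and both were lower in RPMI-8226 than in the libraries labelled NCI-BL2171. H2BC11 had 8.47 and 7.06 TPM in RPMI-8226-R, 20.7 and 20.1 TPM in RPMI-8226 and 325 TPM in each of the libraries labelled NCI-BL2171, with log2 fold changes of -1.75 ± 0.13 between the myeloma lines and -3.84 ± 0.09 in RPMI-8226 against the libraries labelled NCI-BL2171. H2BC4 had 7.39 and 5.45 TPM in RPMI-8226-R, 7.82 and 12.7 TPM in RPMI-8226, and 224 and 252 TPM in the libraries labelled NCI-BL2171, with log2 fold changes of -0.95 ± 0.20 and -4.35 ± 0.14. The first change of H2BC4 passed in the count test (adjusted p = 4.54e-04) and did not on log2(TPM + 1) with limma (-0.58). The difference between the comparisons was not tested. H2BC17 had 8 and 6 reads in RPMI-8226-R and 15 and 6 in RPMI-8226, which overlap, and 256 and 211 in the libraries labelled NCI-BL2171.

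H2BC26, the partner of H2AC25, had 43 and 72 reads in RPMI-8226-R, 371 and 381 in RPMI-8226, and 429 and 432 in the libraries labelled NCI-BL2171. Between the myeloma lines it fell by 2.81 ± 0.19 on the log2 scale, but did not pass in RPMI-8226 against the libraries labelled NCI-BL2171 (-0.20 ± 0.15). H2BC15 had the smallest fall of the H2B genes that passed, with 76 and 74 reads in RPMI-8226-R, 115 and 90 in RPMI-8226, and 797 and 774 in the libraries labelled NCI-BL2171; its log2 fold change was -0.54 ± 0.18 between the myeloma lines and -2.94 ± 0.15 in RPMI-8226 against the libraries labelled NCI-BL2171. H2BC9 and H2BC18 fell by 1.83 ± 0.37 and 2.22 ± 0.37 between the myeloma lines. H2BC13 had 3 reads over both RPMI-8226-R libraries, 9 over both RPMI-8226 libraries and 64 over those labelled NCI-BL2171.

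H2BC6 was the gene that rose, on few reads: 11 and 19 in RPMI-8226-R, 3 and 5 in RPMI-8226, and 31 and 25 in the libraries labelled NCI-BL2171. Its log2 fold change in RPMI-8226-R against RPMI-8226 was 1.77 ± 0.65 (adjusted p = 0.0218). It did not pass without the second RPMI-8226-R library (1.40), without the first RPMI-8226 library (1.42), with DESeq2 (1.84), with an offset for effective length (0.63), or on log2(TPM + 1) with limma (0.04). The length of H2BC6 in the deposited tables was 547 bases in the second RPMI-8226 library and 2585 bases in the other 3 myeloma libraries, and its TPM overlapped between the lines.

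**Figure D3:**
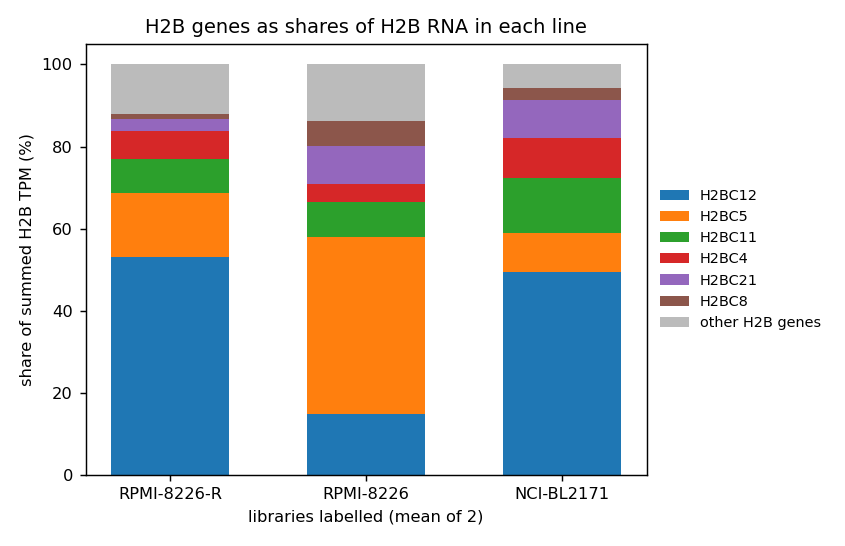
Share of summed H2B TPM (%) held by each of the 6 leading H2B genes and by the rest, as stacked bars for the mean of the 2 libraries of each line. H2BC12 is 53.1% in RPMI-8226-R, 14.8% in RPMI-8226 and 49.5% in the libraries labelled NCI-BL2171, and H2BC5 is 15.6% in RPMI-8226-R, 43.1% in RPMI-8226 and 9.50% in the libraries labelled NCI-BL2171.

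The upstream sequence is shown for the gene with the largest H2B fall, for the H2B gene with the highest mean TPM and for H1-2. This sets a gene that fell beside one that did not pass and lets the known histone promoter motifs be read. The 250 bases before the RefSeq start (GRCh38.p14) are given 5′ to 3′ on the strand of the gene. Capitals mark the CCAAT box (CCAAT), the TATA box (TATAAA), the octamer bound by POU2F1 (ATTTGCAT) and the H1 box (AAACACA), each on either strand; where marked motifs touch or overlap, their capitals run together.

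H1-2: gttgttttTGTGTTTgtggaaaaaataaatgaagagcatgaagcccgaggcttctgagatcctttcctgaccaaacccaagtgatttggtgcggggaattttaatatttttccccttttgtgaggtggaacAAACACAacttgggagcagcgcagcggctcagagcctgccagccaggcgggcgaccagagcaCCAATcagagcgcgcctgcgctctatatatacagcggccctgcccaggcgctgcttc
H2BC8: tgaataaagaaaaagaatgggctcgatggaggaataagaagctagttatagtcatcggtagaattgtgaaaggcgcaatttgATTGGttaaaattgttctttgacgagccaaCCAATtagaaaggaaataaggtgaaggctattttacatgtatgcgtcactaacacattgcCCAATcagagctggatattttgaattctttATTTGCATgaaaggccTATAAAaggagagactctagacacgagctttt
H2BC12: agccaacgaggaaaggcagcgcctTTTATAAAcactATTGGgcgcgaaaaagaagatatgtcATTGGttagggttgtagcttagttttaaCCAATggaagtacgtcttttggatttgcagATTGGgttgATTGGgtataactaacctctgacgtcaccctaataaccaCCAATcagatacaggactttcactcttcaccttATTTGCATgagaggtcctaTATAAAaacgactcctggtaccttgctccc

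They lie at chr6:26056471-26056720, chr6:26216689-26216938 and chr6:27146856-27147105, all on the minus strand. The table holds such a stretch for 64 of the 69 genes. The octamer stood in 11 of 16 H2A and 14 of 18 H2B stretches and in 0 of the 6 H1, 11 H3 and 13 H4 stretches, against 1.68% of all 27305 in the table. The H1 box stood in all 6 H1 stretches and in 0 of the core types, against 4.96% of all. CCAAT stood in all H1, H2A, H2B and H3 stretches and in 3 of 13 for H4, against 32.9% of all. TATAAA stood in 3 of 6 for H1, 12 of 16 for H2A, 12 of 18 for H2B, 9 of 11 for H3 and 7 of 13 for H4, against 11.3% of all. In 11 pairs of an H2A and an H2B gene, described next, the starts lie 219 to 331 bases apart. The stretches of such a pair can cover much of the same DNA, and motifs were read on either strand. One octamer can therefore be counted for both genes, so the H2A and H2B counts are not independent of each other. H2BC8, which fell by 3.98 on the log2 scale in RPMI-8226-R, and H2BC12, which did not pass, both hold the octamer, CCAAT and TATAAA; a match is a description and not a shown site of binding.

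Most H2A and H2B genes of the clusters lie head to head, with a short stretch between their starts that serves both. GENCODE 29 gave 12 such pairs of neighbours, 11 of them of an H2A and an H2B gene. H2BC8 and H2AC8, with starts 283 bases apart, had similar levels: 1.18 and 2.40 TPM in RPMI-8226-R, 14.4 and 19.1 TPM in RPMI-8226, and 71.9 and 84.4 TPM in the libraries labelled NCI-BL2171. H2BC12 and H2AC12, 331 bases apart, did not: H2BC12 averaged 50.01 TPM in RPMI-8226-R, 34.7 TPM in RPMI-8226 and 1213 TPM in the libraries labelled NCI-BL2171, while H2AC12 averaged 0.96 TPM in RPMI-8226-R, 0.49 TPM in RPMI-8226 and 1.28 TPM in the libraries labelled NCI-BL2171. For H2BC21 and H2AC20, 323 bases apart, the means were 2.83 and 3.86 TPM in RPMI-8226-R, 21.6 and 5.13 TPM in RPMI-8226, and 225 and 9.54 TPM in the libraries labelled NCI-BL2171. H2BC4 and H2AC6, 219 bases apart, had 6.42 and 6.56 TPM in RPMI-8226-R, 10.3 and 31.3 TPM in RPMI-8226, and 238 and 253 TPM in the libraries labelled NCI-BL2171. Genes that share such a stretch were thus alike in level in some pairs and far apart in others.

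Of the 7 H3 genes tested 6 were lower in RPMI-8226-R than in RPMI-8226, and H3C13 did not pass. The share of all genes tested that were lower was 37.2%. H3C10 was the leading H3 gene, with 57 and 58 reads (2.66 and 2.91 TPM) in RPMI-8226-R, 515 and 506 reads (14.2 and 15.9 TPM) in RPMI-8226, and 4442 and 3900 reads (137 TPM each) in the libraries labelled NCI-BL2171. It fell by 3.24 ± 0.12 on the log2 scale (adjusted p = 2.14e-15), and the lines did not overlap. H3C2, H3C4, H3C14 and H3C15 fell by 2.02 to 2.64 on that scale, all on at most 48 reads per myeloma library; H3C14 and H3C15 are near-identical copies whose reads could have been split in more than one way. H3C2 had 10 and 0 reads in RPMI-8226-R, 33 and 27 in RPMI-8226, and 104 and 84 in the libraries labelled NCI-BL2171.

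H3C8 ran the other way between the myeloma lines and the libraries labelled NCI-BL2171. It had 17 and 10 reads in RPMI-8226-R, 76 and 59 in RPMI-8226 and none in the libraries labelled NCI-BL2171. Against a floor of 3 reads per library it was at least 4.23-fold higher in RPMI-8226-R and at least 22.3-fold higher in RPMI-8226 than in those libraries. Within the myeloma pair it fell like the rest (-2.40 ± 0.44, adjusted p = 7.68e-05).

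Nearly all H4 genes code for the same protein. Of 10 tested, 5 fell between the myeloma lines (50%, against 37.2% of all genes tested) and 5 did not pass. On 10 genes that count is not far from the share of all genes. H4C14 and H4C15, near-identical copies on chromosome 1, had the highest mean TPM of the H4 genes in both myeloma lines; in the libraries labelled NCI-BL2171 H4C9 did, with 22.9 TPM. H4C14 had 113 and 97 reads in RPMI-8226-R, 424 and 355 in RPMI-8226, and 434 and 477 in the libraries labelled NCI-BL2171. H4C15 had 116 and 109 reads in RPMI-8226-R, 396 and 384 in RPMI-8226, and 510 and 460 in the libraries labelled NCI-BL2171. Both fell in RPMI-8226-R (-1.98 ± 0.16, adjusted p = 8.19e-10, and -1.89 ± 0.15, adjusted p = 3.05e-10). Between RPMI-8226 and the libraries labelled NCI-BL2171 their log2 fold changes were -0.24 ± 0.14, which did not pass, and -0.32 ± 0.13 (adjusted p = 0.0282), a call that was lost when any one library of the 2 lines was left out (-0.29 to -0.33).

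H4C9, H4C11 and H4C12 fell by 1.92 to 2.49 on the log2 scale in RPMI-8226-R against RPMI-8226, with 10 to 19 reads per library in RPMI-8226-R, 40 to 74 in RPMI-8226 and 111 to 171 in the libraries labelled NCI-BL2171. H4C11 was lower in RPMI-8226 than in the libraries labelled NCI-BL2171 (-0.92 ± 0.27), which did not pass without RPMI-8226 replicate 1 (-0.71) or without NCI-BL2171 replicate 1 (-0.82). H4C8 had 56 and 46 reads in RPMI-8226-R, 29 and 39 in RPMI-8226, and 491 and 493 in the libraries labelled NCI-BL2171. Its log2 fold change between the myeloma lines, 0.49 ± 0.26, did not pass, but it did with library totals (0.70), with an offset for effective length (1.20), on log2(TPM + 1) with limma (0.94) and without the second RPMI-8226-R library (0.68). H4C16, a solitary gene on chromosome 12, had 10 and 20 reads in RPMI-8226-R, 24 and 37 in RPMI-8226 and none in the libraries labelled NCI-BL2171; against the floor it was at least 4.61-fold higher in RPMI-8226-R and at least 10.2-fold higher in RPMI-8226. H4C5 and H4C3 did not pass between the myeloma lines (-1.07 ± 0.54 and -0.87 ± 0.67), on at most 28 reads per library there. H4C4 had 2 reads over both RPMI-8226-R libraries, 5 over both RPMI-8226 libraries and 34 over those labelled NCI-BL2171.

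Within each line a few genes carried most of the RNA and many were near 0. Of the 11 genes with reads that were not tested, H3C7, H3C12, H2BC10 and H4C2 had the most, at 20 to 36 reads over all 6 libraries, and each had some in RPMI-8226-R. H2AC1, H2BC1, H3C1 and H4C1 had reads in the libraries labelled NCI-BL2171 alone, 6 at most. H2AC4 and H2AC21 had 11 and 14 reads in all. H2BC14 had 1 and 2 reads in RPMI-8226 and none elsewhere. The order of the 61 genes by mean TPM was alike in the lines: Spearman's rho across genes was 0.910 between RPMI-8226-R and RPMI-8226, 0.832 between RPMI-8226-R and the libraries labelled NCI-BL2171, and 0.846 between RPMI-8226 and those libraries. Genes are not independent replicates and share depth and lengths, so these are descriptions.

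**Figure D4:**
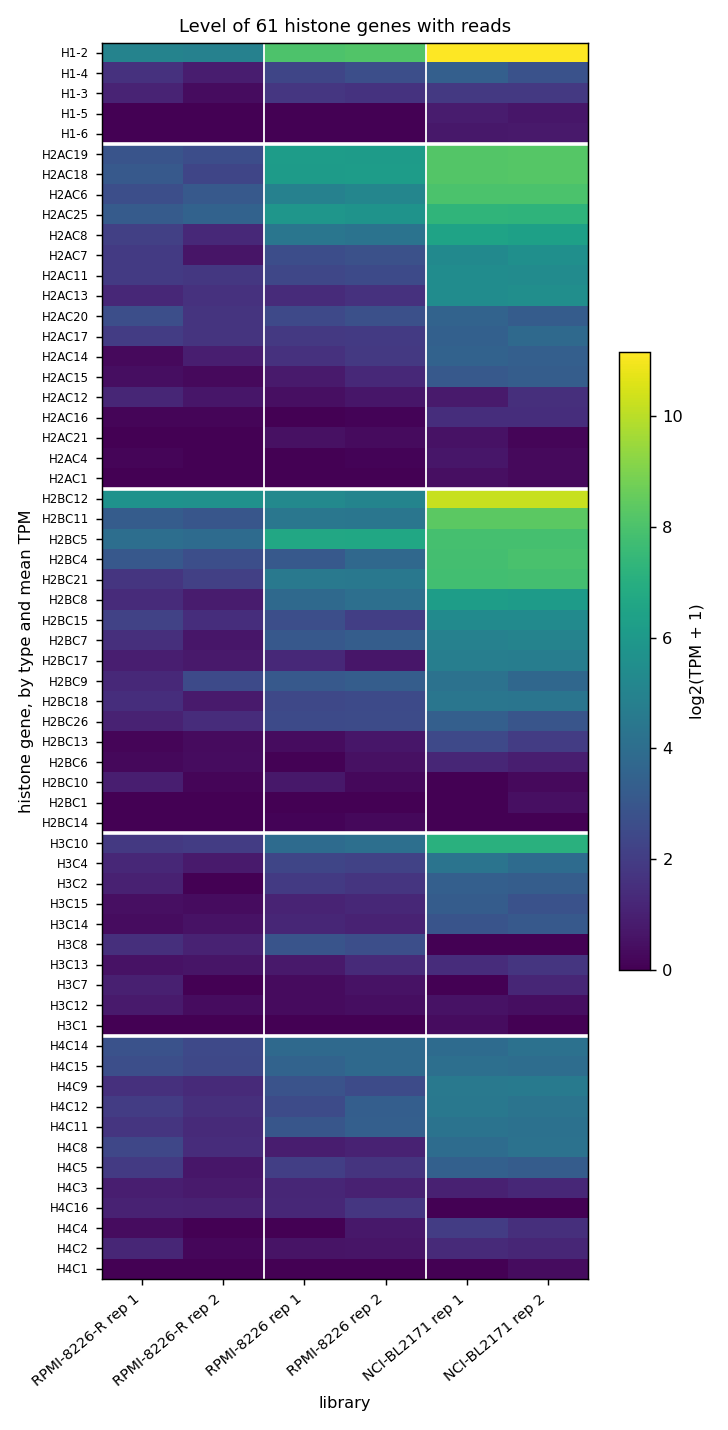
Level of each of the 61 histone genes with reads in each of the 6 libraries, as log2(TPM + 1) by colour, grouped by type and ordered by mean TPM within it. H1-2 and H2BC12 stand out at the top of their types in the libraries labelled NCI-BL2171, while H3C8 and H4C16 are at 0 there and not in the myeloma lines.

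Some histone genes can also make longer, polyadenylated RNAs that run past the stem-loop, which makes the length in the tables of use. GENCODE 29 annotates more than 100 bases after the stem-loop for 23 of the 29 genes with one, among them H2BC21 with 1729 bases and H3C10 with 769. In the deposited tables a length is a mean over transcripts weighted by their estimated levels, and it varied between libraries for 12 of the 69 genes. H3C10 had 955 and 899 bases in RPMI-8226-R, 1250 and 1142 in RPMI-8226 and 1250 in both libraries labelled NCI-BL2171. H4C14 had 853 and 972 bases in RPMI-8226-R, 1128 and 1002 in RPMI-8226, and 1221 and 1244 in the libraries labelled NCI-BL2171. For H2BC5 the order was the other way, with 575 and 619 bases in RPMI-8226-R, 524 and 527 in RPMI-8226 and 533 in both libraries labelled NCI-BL2171.

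A split of the 63 core histone genes by length was made after their values were seen and is given as a description. The 13 genes with a length above 600 bases in some library summed to 54.7 TPM in RPMI-8226-R, 261.8 TPM in RPMI-8226 and 1097 TPM in the libraries labelled NCI-BL2171, and their share of core histone TPM was 32.1% in RPMI-8226-R, 44.5% in RPMI-8226 and 27.4% in the libraries labelled NCI-BL2171. The 50 shorter genes summed to 115.5 TPM in RPMI-8226-R, 326.7 TPM in RPMI-8226 and 2903 TPM in the libraries labelled NCI-BL2171. In RPMI-8226-R against RPMI-8226, 9 of 12 longer genes tested and 21 of 33 shorter ones fell, with median log2 fold changes of -2.27 and -1.92. Among all genes tested 37.2% were lower there. Both groups were thus lower in RPMI-8226-R.

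Factors that transcribe histone genes and cut their RNA were called in both directions. Of 25 tested genes in a list of 26, 10 (40%) were higher and 9 (36%) lower in RPMI-8226-R against RPMI-8226. Among all genes tested 28.5% were higher and 37.2% lower. The list's median log2 fold change was 0.08. With library totals 14 were higher and 5 lower, where 7151 of all 20081 genes tested were higher and 6082 lower. On log2(TPM + 1) with limma 15 were higher and 2 lower, where 6896 of all 19321 genes tested were higher and 4288 lower. SLBP had 88.9 and 89.2 TPM in RPMI-8226-R, 75.1 and 74.2 TPM in RPMI-8226, and 101 and 95.2 TPM in the libraries labelled NCI-BL2171. Its log2 fold change between the myeloma lines was -0.12 ± 0.07, which did not pass (adjusted p = 0.124) and turned to 0.25 on log2(TPM + 1).

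NPAT and CASP8AP2, proteins of the histone locus body, the nuclear site where the clusters are transcribed, were higher in RPMI-8226-R. NPAT, the co-activator of the clusters, had 13.4 and 14.2 TPM in RPMI-8226-R, 7.72 and 6.97 TPM in RPMI-8226, and 6.09 and 5.24 TPM in the libraries labelled NCI-BL2171 (0.85 ± 0.09 in RPMI-8226-R against RPMI-8226, adjusted p = 5.31e-08). CASP8AP2, or FLASH, needed for cutting histone RNA, had 6.75 and 7.73 TPM in RPMI-8226-R, 2.13 and 2.16 TPM in RPMI-8226, and 2.50 and 2.52 TPM in the libraries labelled NCI-BL2171 (1.49 ± 0.10, adjusted p = 5.26e-11). The cap-binding subunit NCBP1 (1.15 ± 0.10) and its partner SRRT (0.78 ± 0.07) rose too, as did CPSF2 (0.68 ± 0.08), a subunit of the cutting complex, and CSTF2 (0.61 ± 0.11).

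Of the U7 particle's own proteins, LSM11 had 1.17 and 1.58 TPM in RPMI-8226-R, 0.80 and 0.61 TPM in RPMI-8226, and 3.77 and 4.21 TPM in the libraries labelled NCI-BL2171. It rose in RPMI-8226-R against RPMI-8226 (0.59 ± 0.16, adjusted p = 0.00326), which did not pass with RPMI-8226 replicate 2 left out (0.43). LSM10 had a log2 fold change of -0.21 ± 0.08 (adjusted p = 0.0295), which turned to 0.18 on log2(TPM + 1) and to 0.0028 with library totals. ZNF473, which is known to join the U7 particle, did not pass (-0.11 ± 0.12). The U7 RNA gene RNU7-1 is listed at 0 in all 6 libraries.

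The cyclin E genes, whose products act with CDK2 to drive NPAT at the start of S phase, were lower. CCNE1 had 4.02 and 4.94 TPM in RPMI-8226-R, 7.82 and 8.44 TPM in RPMI-8226, and 15.7 and 17.5 TPM in the libraries labelled NCI-BL2171. CCNE2 had 11.4 and 9.96 TPM in RPMI-8226-R, 26.3 and 26.4 TPM in RPMI-8226, and 12.6 and 14.5 TPM in the libraries labelled NCI-BL2171. They fell by 1.21 ± 0.13 and 1.73 ± 0.11 on the log2 scale in RPMI-8226-R against RPMI-8226 (adjusted p = 6.62e-08 and 2.18e-11). HINFP, known for binding H4 promoters, had a log2 fold change of -0.48 ± 0.10, and CDK2 of -0.56 ± 0.07; on log2(TPM + 1) with limma neither passed (-0.28 and -0.17).

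Against the libraries labelled NCI-BL2171, RPMI-8226 had 7 of the 25 tested genes of this list higher and 12 lower (28% and 48%). Over all genes tested, 41.1% were higher and 35.6% lower in that comparison. LSM11 was lower by 2.28 ± 0.15 (log2 fold change -2.28, adjusted p = 1.18e-11), NCBP1 had -1.67 ± 0.09 and ERI1, an exonuclease that trims histone RNA, -1.34 ± 0.10. CDK9, the elongation kinase, was higher in RPMI-8226 (1.39 ± 0.08), and CCNE2 as well (1.33 ± 0.11).

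The replication-independent histones, which are also made outside S phase, mostly from polyadenylated RNA, were called lower for the most part in RPMI-8226-R. There 37.2% of all genes tested were lower. Of 11 tested genes 8 were lower and MACROH2A1 was higher (0.58 ± 0.06), with a median log2 fold change of -0.77. On log2(TPM + 1) 7 were lower and 3 higher, where 4288 of all 19321 genes tested were lower and 6896 higher. On the log2 scale, H1-10, a linker variant, fell in RPMI-8226-R against RPMI-8226 by 1.65 ± 0.06, H2AJ by 1.81 ± 0.13, H3-3B by 1.19 ± 0.06, H3-5 by 1.47 ± 0.09 and H2AX by 0.77 ± 0.09.

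H3-3B, which with H3-3A codes for H3.3, had 494 and 490 TPM in RPMI-8226-R, 967 and 1001 TPM in RPMI-8226, and 1074 and 1092 TPM in the libraries labelled NCI-BL2171. The log2 fold change of H3-3A in RPMI-8226-R against RPMI-8226 was -0.31 ± 0.07 and turned to 0.01 on log2(TPM + 1). H2AZ1 (0.15 ± 0.07, adjusted p = 0.0559) and CENPA, the centromeric H3 (-0.01 ± 0.09), did not pass; H2AZ1 passed as higher under 7 of the alternatives. Summed over the list, TPM was 2365 and 2366 in RPMI-8226-R, 3170 and 3188 in RPMI-8226, and 2695 and 2725 in the libraries labelled NCI-BL2171. In RPMI-8226 and RPMI-8226-R these genes summed to more than the replication-dependent ones, and in the libraries labelled NCI-BL2171 to less.

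**Figure D5:**
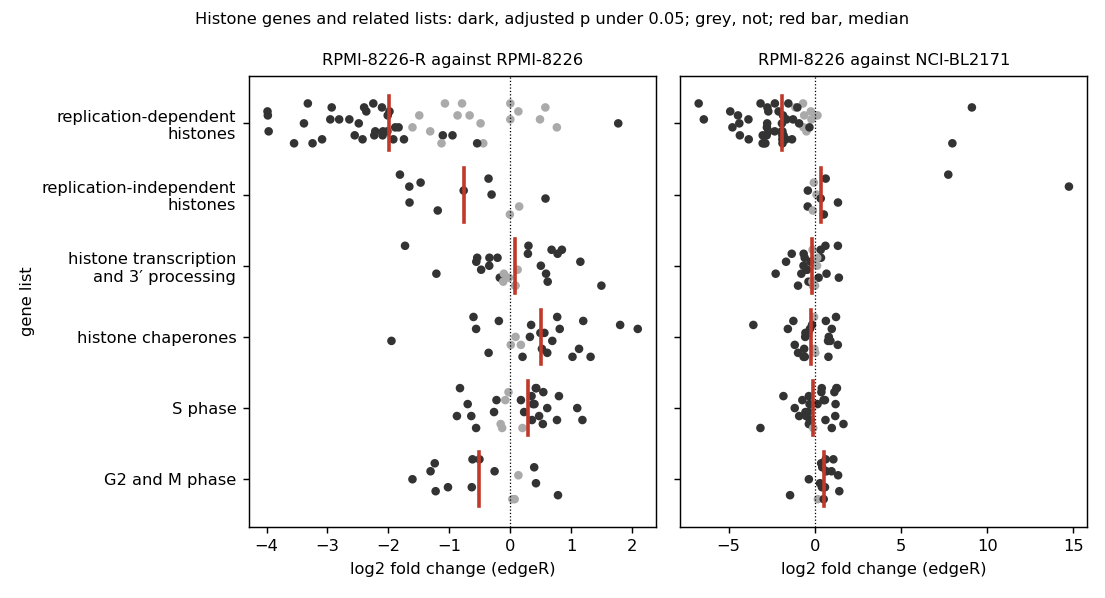
Log2 fold change (edgeR, horizontal axis) of each tested gene of the replication-dependent histones and of 5 related lists, for RPMI-8226-R against RPMI-8226 (left) and RPMI-8226 against NCI-BL2171 (right); dark points passed the threshold, and red bars are medians. On the left the histone median is -2.0, against -0.77 for replication-independent histones and 0.29 for S phase genes; on the right it is -1.90, against 0.34 and -0.14.

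Other genes induced with S phase were called in both directions in RPMI-8226-R. Of 28 tested, 16 were higher and 7 lower than in RPMI-8226, against the same 28.5% and 37.2% of all genes. Their median log2 fold change was 0.29. On log2(TPM + 1) 18 were higher and 4 lower, where 6896 of all 19321 genes tested were higher and 4288 lower. Summed TPM of the list was 3024 and 3129 in RPMI-8226-R, 2426 and 2383 in RPMI-8226, and 2598 and 2722 in the libraries labelled NCI-BL2171. POLA1, a replication polymerase subunit, rose by 1.10 ± 0.08 and UNG, a uracil glycosylase, by 1.18 ± 0.08 on the log2 scale, while CDT1, which licenses origins, fell by 0.88 ± 0.07 and TK1, thymidine kinase, by 0.83 ± 0.06. Of 15 tested G2 and M phase genes 9 were lower and 3 higher, with a median of -0.51; CDK1 fell by 1.61 ± 0.07 and AURKB by 1.31 ± 0.07, and CENPE rose by 0.78 ± 0.09. With library totals the G2 and M counts were 8 lower and 6 higher, where 6082 of all 20081 genes tested were lower and 7151 higher. The share of cells in S phase was not measured, and its part in the histone values was not tested.

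Histone chaperones, which carry new histones to DNA, had 16 of 24 genes higher and 5 lower in RPMI-8226-R than in RPMI-8226, where 28.5% of all genes tested were higher and 37.2% lower. Their median log2 fold change was 0.51. On log2(TPM + 1) 18 were higher and 2 lower, where 6896 of all 19321 genes tested were higher and 4288 lower. ASF1A had 18.5 and 21.5 TPM in RPMI-8226-R, 3.52 and 4.18 TPM in RPMI-8226, and 13.8 and 11.4 TPM in the libraries labelled NCI-BL2171, and rose by 2.09 ± 0.11. HIRA, the H3.3 chaperone, had 7.19 and 7.96 TPM in RPMI-8226-R, 1.64 and 1.79 TPM in RPMI-8226, and 23.0 and 23.96 TPM in the libraries labelled NCI-BL2171, and rose by 1.80 ± 0.10. HJURP, the chaperone of CENPA, fell by 1.95 ± 0.07 and NAP1L1 by 0.60 ± 0.06. MCM2 stands in both this list and the S phase list.

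Other RNAs without a poly(A) tail were read as a measure of how such RNA entered each library. Summed over 8 genes they came to 329 and 236 TPM in RPMI-8226-R, 210 and 570 TPM in RPMI-8226, and 225 and 536 TPM in the libraries labelled NCI-BL2171, so the lines overlapped. RN7SL1 and RN7SL2 made up most of each sum and differed widely between libraries of a line. RN7SL2 had 72.2 and 260 TPM in RPMI-8226. RN7SL1, the signal recognition RNA, had 132 and 110 TPM in RPMI-8226-R, 49.5 and 225 TPM in RPMI-8226, and 85.6 and 211 TPM in the libraries labelled NCI-BL2171. RN7SK had 42.6 and 14.7 TPM in RPMI-8226-R, 70.4 and 60.9 TPM in RPMI-8226, and 37.4 and 57.1 TPM in the libraries labelled NCI-BL2171, and did not pass in RPMI-8226-R against RPMI-8226 (adjusted p = 0.0933). Of 5 tested genes only RMRP passed in that comparison, as lower, where 37.2% of all genes tested were lower and 28.5% higher. RMRP is listed at 0 in both RPMI-8226-R libraries and had 11.7 and 15.1 TPM in RPMI-8226. All 5 had log2 fold changes below 0, with a median of -0.79 and the highest at -0.59, against a median of -0.12 over all genes tested. With library totals in place of TMM the median of the 5 was -0.57, against 0.04 over all genes tested. TERC, the telomerase RNA, is listed at 0 in all 6. The part of the recovery of such RNA in the histone values was not tested.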

How the data were processed

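Per the labels' protocols, total RNA was depleted of ribosomal RNA before library preparation. The authors deposited 1 table per library with estimated counts of reads, TPM, length and effective length of each gene, per the file headers. The submitters' processing notes name GRCh38.p13. Which program made the estimates, with which annotation and strand setting, is not given in the sources used here, so reads of overlapping or antisense genes may be mixed. Copies of 46 pseudoautosomal genes on the Y chromosome were added to their X copies, which left 61498 genes. Gene identifiers were matched to symbols without version, and positions came from GENCODE 29 for 65 of the 69 histone genes. Reads were whole to within 0.005 for all but 2 of the histone genes, H2AC7 and H3C4.

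Deposited estimated counts were rounded to whole numbers. After TMM scaling and filterByExpr (minimum count 10, minimum total 15), 1 model of all 6 libraries, with 3 residual degrees of freedom, was fitted in edgeR 4.0.16 under R 4.3.3, and the quasi-likelihood F test (robust, two-sided) was adjusted by Benjamini-Hochberg over 20081 genes, with calls at 0.05. The fit's typical coefficient of variation between libraries of a line, beyond counting error, was 6.81%. Deposited TPM values, made by the authors, were used for levels and sums, given as values or as mean over 2 libraries; for a gene at 0 in a line a floor of 3 counts per library was used. Alternatives were library totals, DESeq2 1.42.0, limma 3.58.1 on log2(TPM + 1) with genes at 0.5 TPM or more, an effective-length offset, no filter, fits of 2 lines alone, a replicate block and each library left out. The procedure was checked on simulated data.

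The histone genes and the lists were chosen with earlier results of these data known. Named genes are all H1 genes, the 4 most abundant of each other type, the 3 largest rises and falls of each type in each comparison with a mean of 10 counts or more, and, of the lists, preset genes, those past the threshold with a 1.5-fold change, or up to 2 rises and 2 falls; other genes named beside them were chosen after their values were seen. Some genes that this rule names are not reported here.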

Additional observations from a re-analysis of the deposited data

How the results depend on the processing

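The count of histone genes lower in RPMI-8226-R against RPMI-8226 was 33 and stayed between 31 and 35 under all alternatives, and between 32 and 35 with 1 library left out. The count of higher genes was 1, and was 3 with library totals, 0 with DESeq2, 2 with limma on log2(TPM + 1), and 0 to 2 with 1 library left out (0 without the first RPMI-8226 library, 2 without the second RPMI-8226-R library). In RPMI-8226-R against NCI-BL2171 it was 2, and 1 when those lines were fitted alone. Lower genes with 1 library left out numbered 34 to 42 in RPMI-8226 against NCI-BL2171 and 43 to 45 in RPMI-8226-R against NCI-BL2171.

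Log2 ratios of summed TPM moved by more than the spread between libraries in these cases, with their direction kept. From library totals, the ratio of RPMI-8226-R over RPMI-8226 was -3.26 for H1, -1.79 for H2B and -2.59 for H3; that of RPMI-8226 over NCI-BL2171 was -2.23 for H2A, -3.22 for H2B and -2.88 for H3; and that of RPMI-8226-R over NCI-BL2171 was -6.27 for H1, -5.01 for H2B and -5.47 for H3. From summed CPM with TMM, an alternative chosen after seeing the data, RPMI-8226-R over RPMI-8226 was -3.48 for H1, -2.93 for H2A, -2.01 for H2B and -2.80 for H3; RPMI-8226 over NCI-BL2171 was -2.84 for H1, -2.07 for H2A, -3.05 for H2B, -2.72 for H3 and -0.91 for H4; RPMI-8226-R over NCI-BL2171 was -6.32 for H1, -5.06 for H2B and -5.51 for H3. These scales weigh gene length differently; the cause of each shift was not tested.

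On log2(TPM + 1) with limma, log2 fold changes of RPMI-8226-R against RPMI-8226 turned in sign for SLBP (0.25), LSM10 (0.18), H3-3A (0.0125), CENPA (0.296), CDK9 (0.204) and CCNA2 (0.00626), and that of RPMI-8226-R against NCI-BL2171 turned for H2AZ1 (0.0279). With library totals, LSM10 (0.00277) and CDK9 (0.0420) turned in the first of these comparisons. There the log2 ratio in TPM minus that in CPM has a median of 0.32 over genes; the cause for single genes was not tested.

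The replicate numbers in the labels did not pair the libraries: deviations of same-numbered libraries correlated at 0.01, 0.03 and -0.0035 in the 3 comparisons. With the replicate number as a block, 34 histone genes were lower and 1 higher in RPMI-8226-R against RPMI-8226. With 2 libraries per line, genes with few reads such as H2AC16, H2BC6 and H4C4 rest on counts in which a few reads decide the value; the call of H4C4 in RPMI-8226 against NCI-BL2171 was lost without RPMI-8226 replicate 1 (-1.69), without NCI-BL2171 replicate 1 (-2.27) and with DESeq2 (-2.76).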
